A study of Mus musculus with 10 samples.

Results

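The genes described here are those of the proposed creatine and calcium futile cycles, 10 of the 19659 genes measured. They were chosen by name and comprise Gatm and Gamt, which make creatine, Slc6a8, which imports it, the creatine kinases Ckb, Ckmt1 and Ckmt2, the phosphatases Alpl and Phospho1, and the calcium pump Atp2a2 with the calcium channel Ryr2. All 10 were measured, each by 1 probe set that names no other gene and has a value on every array, so no member was lost to a filter. The series profiled a subcutaneous white depot, the inguinal-femoral fat, in 10 females of an F2 cross with 1 array per animal. The 5 FF mice were homozygous for the Fat-line allele at Fob3a, an obesity locus on chromosome 15, and the 5 VV mice were homozygous for the V-line allele. All 10 mice were 14 weeks old, untreated and fed chow without restriction. The V line is a congenic line, founded from 1 animal recombinant within the Fob3a region and crossed back to the Fat line 11 to 12 times, so the animals of both genotypes share mainly a Fat-line background. The tissue is a mixture of cells, in which fewer cells of a type and less RNA per cell cannot be told apart. None of the 10 genes lies on chromosome 15, by the RefSeq annotation.

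In thermogenic fat of mice, creatine is phosphorylated with mitochondrial ATP and the phosphocreatine is split again, so that ATP is spent and respiration runs without a net gain of ATP. Creatine reaches the cell by uptake or by synthesis from arginine, glycine and a methyl group. Creatine kinase B and the mitochondrial kinases have been placed on the phosphorylating side of this cycle, and the alkaline phosphatase encoded by Alpl on the splitting side. In a separate cycle described in mouse beige fat, SERCA2 pumps calcium into the endoplasmic reticulum and the ryanodine receptor RyR2 lets it out, again at the cost of ATP. Both cycles have been put forward as sources of heat that do not need the uncoupling protein UCP1.

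The promoter windows of 3 genes are shown because Phospho1 was the member past the test described further on, and because Gatm and Ckb were the members whose genotypes overlapped with all mice and not once a single mouse was left out. Each window runs from 250 bases before to 50 bases after an annotated start site and is taken from RefSeq on GRCm38.p6, where 8 of the 10 members had a window. Lengths are 300 bases, written 5′ to 3′ on the gene's strand. The capitals mark matches to the motifs searched. The windows lie at chr11:95824250-95824549 on the plus strand for Phospho1, chr2:122611228-122611527 on the minus strand for Gatm and chr12:111672289-111672588 on the minus strand for Ckb.
Phospho1: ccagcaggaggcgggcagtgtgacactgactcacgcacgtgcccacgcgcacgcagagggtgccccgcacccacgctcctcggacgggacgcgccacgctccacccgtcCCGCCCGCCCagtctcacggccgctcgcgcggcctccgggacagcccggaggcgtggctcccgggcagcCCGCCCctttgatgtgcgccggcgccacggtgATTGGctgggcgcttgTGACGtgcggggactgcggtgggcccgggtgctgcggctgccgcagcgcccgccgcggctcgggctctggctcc
Gatm: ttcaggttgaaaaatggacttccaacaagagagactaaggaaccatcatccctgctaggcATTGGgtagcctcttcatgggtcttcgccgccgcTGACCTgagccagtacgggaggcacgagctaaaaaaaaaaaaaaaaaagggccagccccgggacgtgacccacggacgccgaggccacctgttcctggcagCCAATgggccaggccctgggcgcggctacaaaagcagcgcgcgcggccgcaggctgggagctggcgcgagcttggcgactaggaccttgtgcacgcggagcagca
Ckb: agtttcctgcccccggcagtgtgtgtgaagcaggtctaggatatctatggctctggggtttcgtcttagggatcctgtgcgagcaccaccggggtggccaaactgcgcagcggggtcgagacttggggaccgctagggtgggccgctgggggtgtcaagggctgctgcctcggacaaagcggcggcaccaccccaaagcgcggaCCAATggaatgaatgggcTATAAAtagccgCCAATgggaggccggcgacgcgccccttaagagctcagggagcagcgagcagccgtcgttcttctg
The motifs were searched on both strands. The Phospho1 window held 3 matches to the GC box GGGCGG, 2 of which overlap, 1 match to the CCAAT box and 1 to TGACG, the short form of the cyclic AMP response element. The Gatm window held 2 CCAAT boxes and 1 nuclear receptor site AGGTCA, and the Ckb window held 2 CCAAT boxes and 1 TATA box TATAAA. None of these letters is rare. Of 32817 distinct windows of this length, 35.6% held the GC box, 37.4% the CCAAT box, 20.8% TGACG, 16.3% AGGTCA and 13.6% TATAAA. The other motifs searched were not in these 3 windows. They were TNAAGGTCA of the estrogen-related receptors, found in 1.28% of all windows, the full element TGACGTCA, found in 1.79%, and the E-box CAGCTG, found in 16.3%. AGGTCA is contained in TNAAGGTCA, and TGACG in TGACGTCA. The share of G and C was 77.0% in the Phospho1 window, 60.7% in that of Gatm and 63.0% in that of Ckb, with a median of 52.7% over all windows.

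Values are normalised log2 intensities, in which a difference of 1 unit is a 2-fold difference in signal, and all differences are FF minus VV. The tissue's defining adipocyte transcripts were bright in every mouse: Adipoq, which encodes adiponectin, averaged 13.34 ± 0.07 (SD, n = 5) in FF mice and 13.38 ± 0.07 (SD, n = 5) in VV mice. RNA of other tissues was unevenly spread. All 28 measured skeletal muscle genes were highest in FF replicate 1, whose muscle score, the mean of the centred log2 values of that list, was 1.64, while the other FF mice lay between -0.44 and 0.14 and the VV mice between -0.36 and 0.13. Of 18 liver genes 17 were highest in VV replicate 1, where the liver score was 3.44. The FF mice had liver scores of -0.55 to -0.28, and the next highest VV mouse had 0.38. Results are therefore also given without these 2 mice where they change. Precision is limited by the number of arrays.

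Of the 10 members, 1 rose past an adjusted p of 0.05 in limma and none fell. The member that rose was Phospho1, a phosphatase of phosphocholine and phosphoethanolamine best known from bone mineralisation. The background for this count is 0.753% of all 19659 genes past the threshold, 0.621% higher and 0.132% lower in FF. At an unadjusted p under 0.05 there were 2 members, Phospho1 and Gatm, where 16.4% of all genes passed. The median difference was -0.03 over the 10 members and 0.00 over all genes, and 4 of the 10 differences were positive, as were 50.3% of those of all genes.

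**Figure D1:**
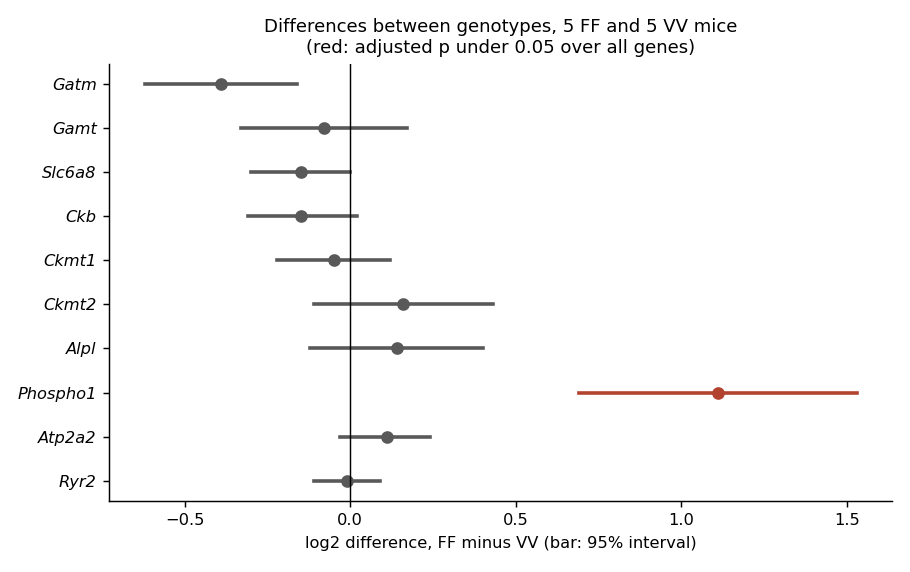
Log2 difference, FF minus VV, with its 95% interval from limma for each of the 10 genes (5 FF and 5 VV mice). Phospho1, in red, lies at 1.11 with an interval from 0.69 to 1.53. Gatm lies at -0.39, and the remaining 8 genes lie between -0.15 and 0.16 with intervals that reach 0.

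Phospho1 stood at 8.67, 9.12, 8.72, 9.75 and 9.39 in FF replicates 1 to 5, against 8.0, 8.09, 8.31, 7.79 and 7.91 in VV replicates 1 to 5. Each FF mouse was above each VV mouse. Such separation with FF above VV was seen for 3.36% of all genes, and Phospho1 was the 1 member that showed it. The FF mice were also more spread out: FF replicates 4 and 5 were the highest, FF replicates 1 and 3 the lowest of their genotype, and the closest gap to VV lay between FF replicate 1 and VV replicate 3. The FF mice averaged 9.13 ± 0.45 (SD, n = 5) and the VV mice 8.02 ± 0.20 (SD, n = 5). That is a 2.16-fold higher signal in FF (log2 difference 1.11 ± 0.19 SE; 95% interval of the fold 1.61 to 2.89; limma adjusted p = 0.0352, rank 65 of 19659 by p).

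The call on Phospho1 was kept in only 4 of the 10 fits with 1 mouse left out, while the difference changed little. With each mouse left out in turn the difference lay between 0.96 and 1.22, and the adjusted p between 0.0226 and 0.0965. The gene stayed past the threshold when FF replicate 3 or 4 or VV replicate 1 or 3 was left out. It was short of it when FF replicate 1 (adjusted p = 0.0593), 2 (adjusted p = 0.0965) or 5 (adjusted p = 0.0676) was left out, and likewise for VV replicate 2 (adjusted p = 0.0870), 4 (adjusted p = 0.0938) or 5 (adjusted p = 0.0678). Without FF replicate 1, the muscle-rich mouse, the difference was 1.22 ± 0.18 SE, beside 1.11 ± 0.19 SE with all mice. The adjusted p also depends on the other genes: 17 of all genes passed in that fit and 148 with all mice. With the muscle score as a covariate it was 1.2 (adjusted p = 0.0907), with the liver score 1.11 (adjusted p = 0.0577), and without both mice 1.22 (adjusted p = 0.0579). The difference was thus as large without those 2 mice, and the adjusted p missed the threshold.

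**Figure D2:**
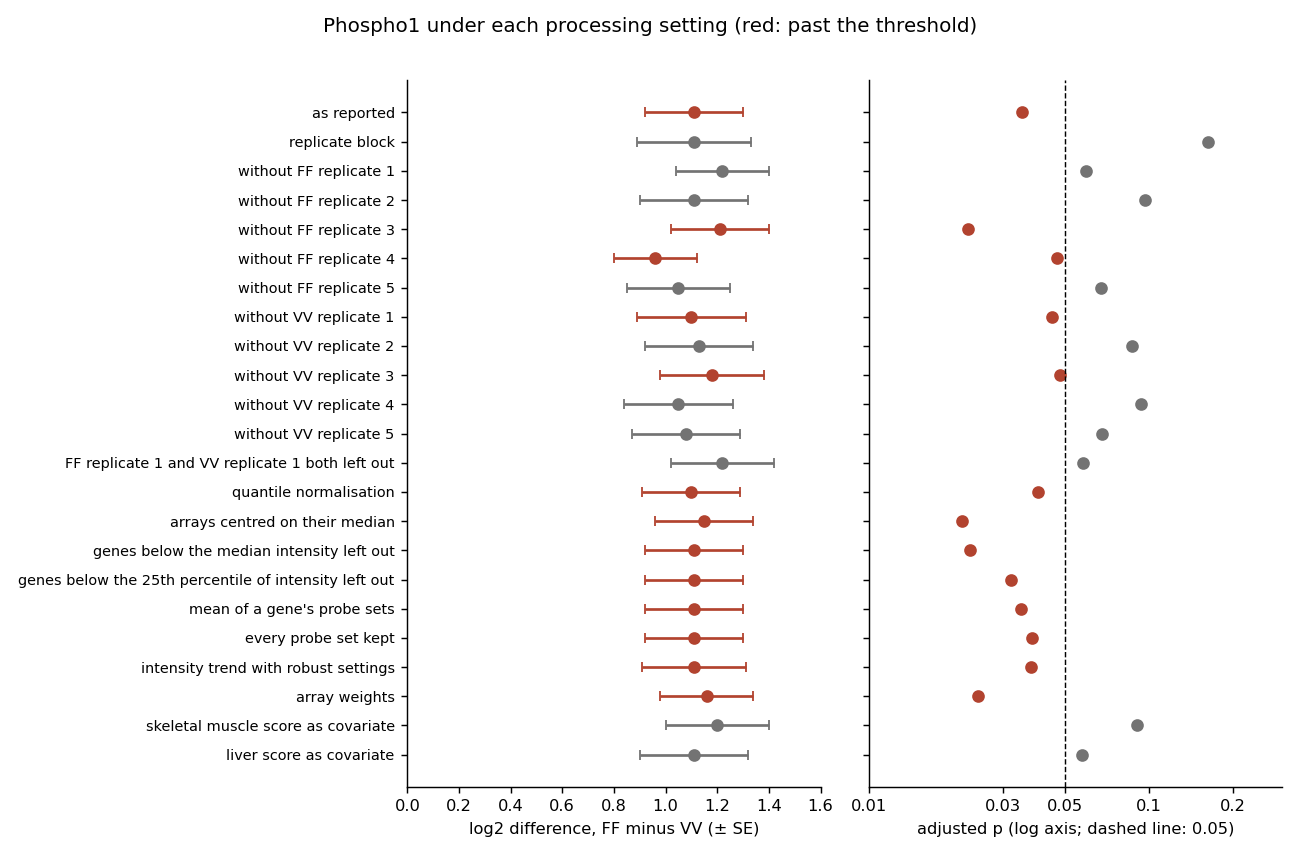
Phospho1 under the reported setting and 22 alternatives, 1 row each. The left panel gives the log2 difference, FF minus VV, with its standard error, and the right panel the limma adjusted p on a log axis with the threshold of 0.05 dashed. Differences stay between 0.96 and 1.22, while the adjusted p runs from 0.0214 to 0.163.

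The 3 other genes whose values over the 10 mice were most like it by Pearson's r, a description without a test, were Cox7a1, a cytochrome c oxidase isoform of muscle and brown fat (r = 0.991), Idh3g, a subunit of the citric acid cycle's isocitrate dehydrogenase (r = 0.976), and Hadha, a subunit of the trifunctional protein of fatty acid oxidation (r = 0.973). The genotypes separate all 4 genes, which alone gives a high r. These 3 were picked as the highest among all genes except the members and predicted genes, which were left out beforehand. After the mean of each genotype was removed, r with Phospho1 was 0.97 for Cox7a1, 0.90 for Idh3g and 0.89 for Hadha. As the genes were picked on the same 10 mice, these values too are raised by the choice. Cox7a1 had 9.84, 10.58, 9.60, 11.62 and 10.93 in FF replicates 1 to 5, against 8.11, 8.25, 8.55, 7.32 and 8.08 in VV replicates 1 to 5. As for Phospho1, FF replicate 4 was the highest and VV replicate 4 the lowest of all mice, but the mice between them did not keep 1 order: FF replicate 1 was below FF replicate 3 for Phospho1 and above it for Cox7a1, Idh3g and Hadha.

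Ucp1, the uncoupling protein of brown and beige adipocytes, ran from 10.17 to 12.09 in FF mice and from 6.22 to 8.06 in VV mice, and it too had its highest value in FF replicate 4 and its lowest in VV replicate 4. In the brown and beige adipocyte list 5 of 16 measured genes rose past the threshold and none fell past it. Over all genes 0.621% rose and 0.132% fell past it. Of the 16, 13 had a positive and 3 a negative difference. The list median was 0.36, and the list score was 0.18 to 0.89 in FF mice and -0.87 to -0.31 in VV mice. The score of -0.31 belonged to VV replicate 1, the liver-rich mouse. Slc27a2, 1 of the 16 genes, was 10.98 in that mouse and 5.80 to 7.04 in the other VV mice. The part of liver RNA in that score was not tested. The leukocyte list differed in the other direction: 1 of its 12 measured genes fell past the threshold, and 11 had a negative difference. Beside 16.4% of all genes, 8 of the 12 had an unadjusted p under 0.05, and the list median was -0.30. Its score was -0.29 to -0.04 in FF mice and 0.08 to 0.44 in VV mice, without overlap. The part of brown or beige adipocytes, or of leukocytes, in the Phospho1 result and in the Gatm and Ckb values given further on was not tested.

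**Figure D3:**
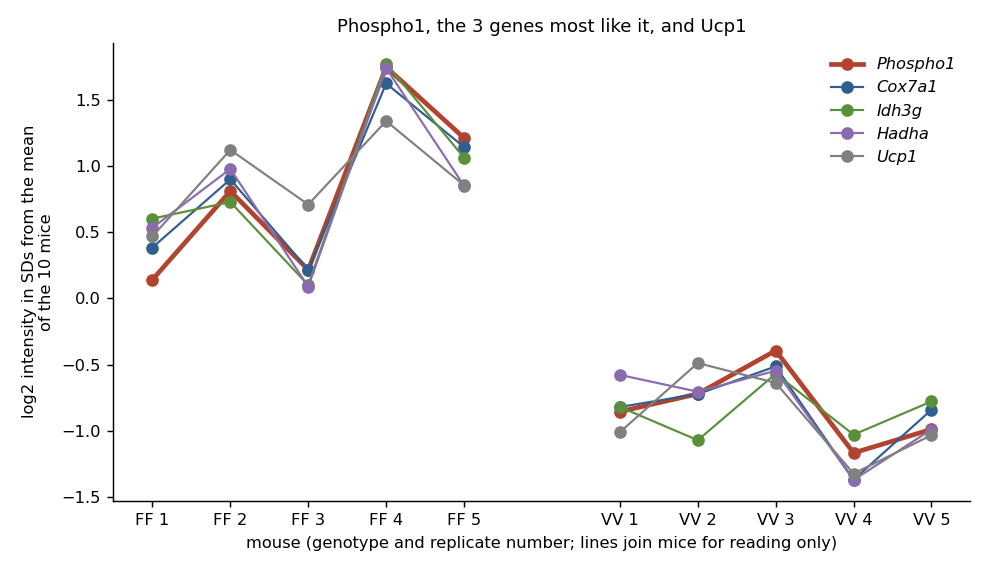
Log2 intensity of Phospho1, of the 3 genes most like it and of Ucp1 in each mouse, in standard deviations from each gene's mean over the 10 mice. All 5 genes lie higher in every FF mouse than in any VV mouse, with FF replicate 4 at the top.

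Alpl, the tissue-nonspecific alkaline phosphatase, did not show this pattern. Its values were 8.04, 8.13, 8.12, 8.16 and 8.67 in FF replicates 1 to 5, against 7.95, 8.33, 8.13, 8.06 and 7.92 in VV replicates 1 to 5. The genotypes overlapped, and 1 animal, FF replicate 5, stood above the rest. The difference was 0.14 with a 95% interval from -0.12 to 0.40 (limma adjusted p = 0.605), so a rise of up to 1.32-fold lies within the interval. Without FF replicate 5 the difference was 0.03 (adjusted p = 0.884). The upper bound for Alpl, 0.40, lies below the lower bound for Phospho1, 0.69; the difference between the 2 phosphatases was not tested.

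Other phosphatase and phosphate-handling genes gave no call. Of 10 measured genes in that list none passed, and the median difference was 0.01. Ank, a membrane protein that moves pyrophosphate out of the cell, had the smallest p of the list and differed by 0.41 ± 0.11 SE (adjusted p = 0.0920). It ran from 10.05 to 10.57 in FF mice and from 9.80 to 10.12 in VV mice, an overlap. Slc20a2, a sodium-phosphate cotransporter, differed by 0.22 (adjusted p = 0.161).

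**Figure D4:**
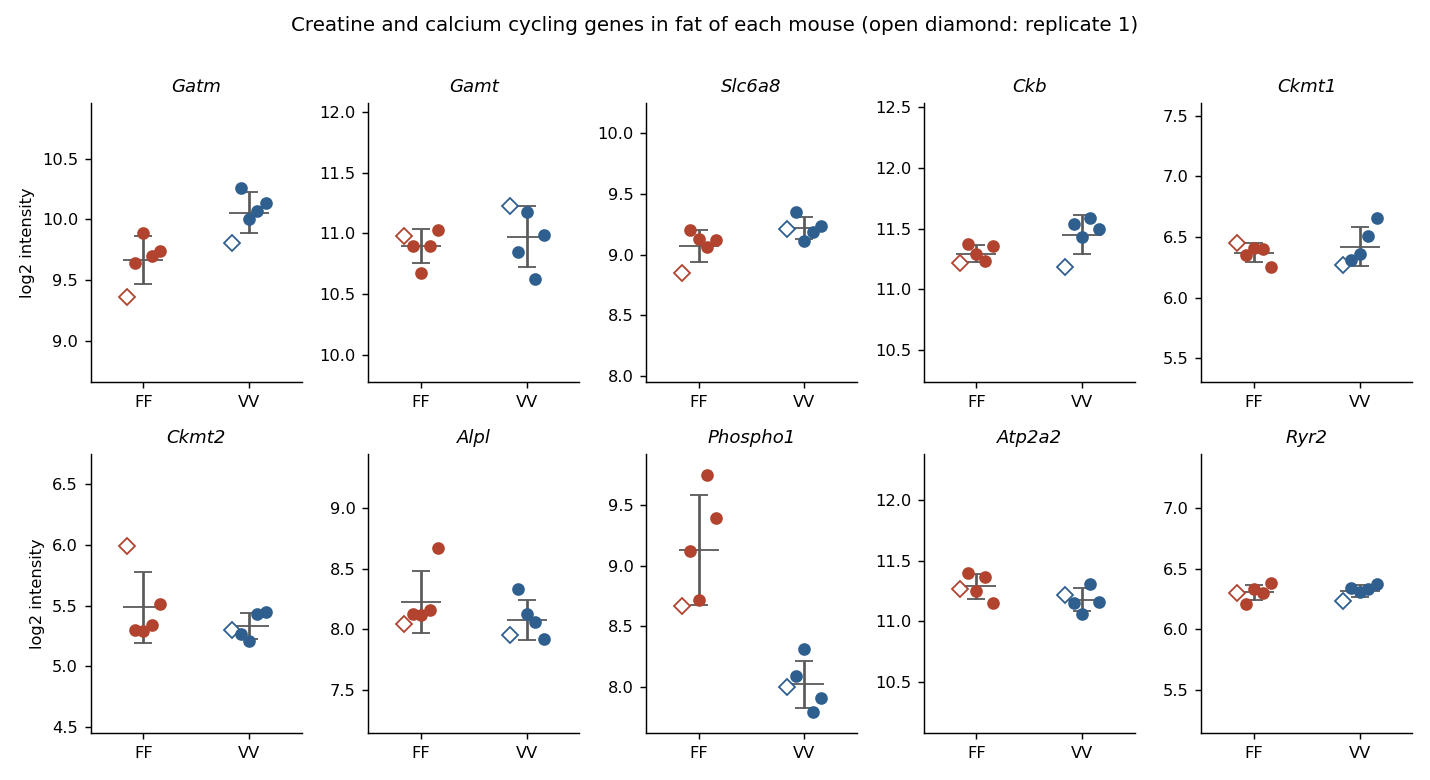
Log2 intensity of each of the 10 genes in each mouse, FF left of VV. All panels span the same 2.3 log2 units; bars give the mean ± SD and open diamonds mark replicate 1 of each genotype. The genotypes separate in the Phospho1 panel and overlap in the other 9.

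None of the 3 genes of creatine synthesis and uptake passed the test. Gatm, the arginine:glycine amidinotransferase that commits arginine and glycine to creatine, had 9.36, 9.64, 9.89, 9.70 and 9.74 in FF replicates 1 to 5, against 9.81, 10.26, 9.997, 10.07 and 10.14 in VV replicates 1 to 5. FF mice were at the low end and VV mice at the high end, with VV replicate 1 below FF replicate 3. The FF mice averaged 9.67 ± 0.20 (SD, n = 5) and the VV mice 10.06 ± 0.17 (SD, n = 5), a difference of -0.39 ± 0.10 SE and a signal 0.764-fold that of VV (95% interval 0.651 to 0.895). In limma its unadjusted p was 0.00334 and its adjusted p over all genes 0.0966.

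The overlap for Gatm lay between VV replicate 1, the liver-rich mouse, and FF replicate 3, and it was gone with either left out. Without VV replicate 1 the FF mice reached at most 9.89 and the VV mice started at 9.997, and the difference was -0.45 (adjusted p = 0.0609). Without FF replicate 3 the FF mice ran from 9.36 to 9.74 and the VV mice from 9.81 to 10.26, and the difference was -0.45 (adjusted p = 0.06). With FF replicate 3 left out, 2.6% of all genes lay lower in every FF mouse than in any VV mouse. Without FF replicate 1, the lowest mouse for Gatm, the difference was -0.31 (adjusted p = 0.161), and with the muscle score as a covariate it was -0.28 (adjusted p = 0.150). Gatm was short of the threshold under the reported setting and all 22 alternatives, with adjusted p from 0.0575 to 0.203, and its difference was negative in each.

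Gamt, the guanidinoacetate methyltransferase that completes creatine, had 10.98, 10.90, 10.67, 10.90 and 11.03 in FF replicates 1 to 5, against 11.23, 10.85, 11.18, 10.62 and 10.99 in VV replicates 1 to 5. The VV mice enclosed the FF mice: VV replicate 1 was the highest and VV replicate 4 the lowest of all. The difference was -0.08 (95% interval -0.33 to 0.17; limma adjusted p = 0.793), and -0.01 without VV replicate 1 (adjusted p = 0.971). VV replicate 1 had the highest liver score, 3.44, and VV replicate 3, the second highest for Gamt, a liver score of -0.68. The part of liver RNA in the Gamt values was not tested.

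Slc6a8, the creatine transporter of the plasma membrane, had 8.85, 9.20, 9.13, 9.06 and 9.12 in FF replicates 1 to 5, against 9.21, 9.35, 9.11, 9.19 and 9.24 in VV replicates 1 to 5. The genotypes overlapped, and the lowest value belonged to FF replicate 1. Its difference was -0.15 with a 95% interval from -0.30 to 0.00 (limma adjusted p = 0.313), and -0.09 without FF replicate 1 (adjusted p = 0.461).

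The supply of precursors showed no call either. Among 10 measured genes of arginine, glycine and methyl group supply none passed, 2 were higher and 8 lower in FF, and the median difference was -0.10. The 2 with the smallest p were Mat2b, a regulatory subunit of methionine adenosyltransferase, at 0.14 (adjusted p = 0.258), and Nnmt, which spends methyl groups on nicotinamide, at -0.13 (adjusted p = 0.268). The score of this list was 0.74 in VV replicate 1 and at most -0.01 in every other mouse, with 6 of its 10 genes highest in that liver-rich animal.

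Of the 3 creatine kinases, none differed past the threshold. Ckb, the cytosolic brain-type enzyme, had 11.22, 11.37, 11.29, 11.23 and 11.36 in FF replicates 1 to 5, against 11.18, 11.54, 11.43, 11.59 and 11.50 in VV replicates 1 to 5. The FF mice were closely grouped and 4 of the 5 VV mice lay above them, with VV replicate 1 below them all. The difference was -0.15 ± 0.08 SE (95% interval -0.31 to 0.02; limma adjusted p = 0.363). Without VV replicate 1 the genotypes no longer overlapped, with means of 11.30 ± 0.07 in FF (SD, n = 5) and 11.51 ± 0.07 in VV (SD, n = 4), a difference of -0.22 and an adjusted p of 0.0859.

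Ckb and Gatm were thus the 2 members that lay lower in every FF mouse than in any VV mouse once VV replicate 1 was left out, where 2.43% of all genes did so. Whether the liver RNA of that mouse bears on its low Ckb and Gatm values was not tested; with the liver score as a covariate Ckb differed by -0.23 (adjusted p = 0.115) and Gatm by -0.45 (adjusted p = 0.0914).

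The mitochondrial kinases Ckmt1, the ubiquitous form, and Ckmt2, the sarcomeric form of muscle and heart, were dim. Ckmt1 had 6.45, 6.35, 6.41, 6.40 and 6.25 in FF replicates 1 to 5, against 6.27, 6.31, 6.36, 6.51 and 6.66 in VV replicates 1 to 5. The genotypes overlapped. Its difference was -0.05 (95% interval -0.22 to 0.12; limma adjusted p = 0.790) and 0.01 without VV replicate 5.

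Ckmt2 had 5.99, 5.30, 5.29, 5.34 and 5.51 in FF replicates 1 to 5, against 5.30, 5.27, 5.21, 5.43 and 5.45 in VV replicates 1 to 5. FF replicate 1 was 0.48 above the next mouse, and the other mice of both genotypes overlapped. The difference of 0.16 (95% interval -0.11 to 0.43; limma adjusted p = 0.579) became 0.03 without FF replicate 1 (adjusted p = 0.858) and 0.01 with the muscle score as a covariate (adjusted p = 0.937). Ckm, the creatine kinase of skeletal muscle, was 9.91 in that same mouse, 7.12 to 7.82 in the other FF mice and 7.14 to 8.27 in VV mice.

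**Figure D5:**
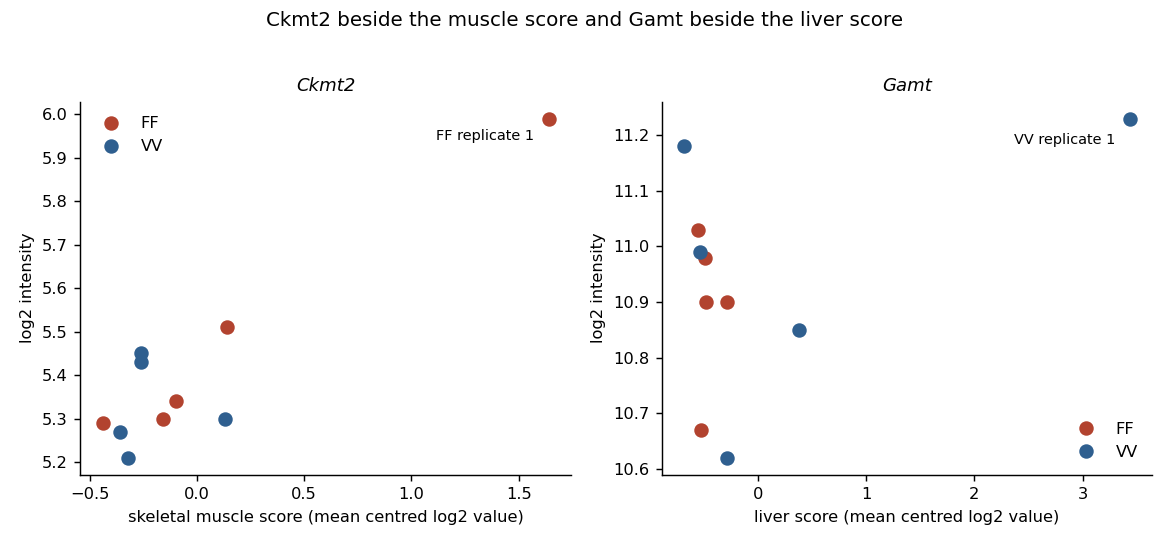
Left, Ckmt2 log2 intensity against the skeletal muscle score of each mouse; right, Gamt log2 intensity against the liver score. FF replicate 1 has the highest muscle score (1.64) and the highest Ckmt2 (5.99). VV replicate 1 has the highest liver score (3.44) and the highest Gamt (11.23), and VV replicate 3 has 11.18 at a liver score of -0.68.

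The partners of the mitochondrial kinases gave no call. In a list of 7 measured genes of adenine nucleotide exchange, outer membrane pores and adenylate kinases, with Ckm, none passed, 6 had a positive difference, Ckm among them, and the median difference was 0.18. The list score overlapped, with -0.16 to 0.41 in FF mice, highest in the muscle-rich FF replicate 1, and -0.16 to 0.06 in VV mice. Vdac2, an outer membrane pore, differed by 0.20 ± 0.06 SE (adjusted p = 0.115), and Slc25a4, the adenine nucleotide translocator of the inner membrane, by 0.18 ± 0.05 SE (adjusted p = 0.118). The Slc25a4 values ran from 11.08 to 11.27 in FF mice and from 10.92 to 11.13 in VV mice, where VV replicate 3 was the mouse that overlapped.

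The calcium cycling pair showed no difference past the test. Atp2a2, which encodes the SERCA2 pump, had 11.27, 11.40, 11.25, 11.37 and 11.15 in FF replicates 1 to 5, against 11.22, 11.15, 11.06, 11.31 and 11.16 in VV replicates 1 to 5. FF replicate 5 was below 3 of the 5 VV mice and level with VV replicate 2. The difference was 0.11 ± 0.06 SE, with a 95% interval from -0.03 to 0.24, equal to at most a 1.19-fold rise (limma adjusted p = 0.419). It was 0.11 without FF replicate 1 and 0.12 without VV replicate 1, and 0.11 with the muscle score as a covariate.

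Ryr2, the calcium release channel known best from the heart, was the steadiest member. It had 6.30, 6.21, 6.33, 6.30 and 6.38 in FF replicates 1 to 5, against 6.23, 6.34, 6.31, 6.33 and 6.37 in VV replicates 1 to 5, a range of 0.17 over all mice where Phospho1 spanned 1.95. Its difference was -0.01 with a 95% interval from -0.11 to 0.09 (limma adjusted p = 0.936), and its sign turned under quantile normalisation and median centring (0.03 in both). The table carries no detection call, so whether this dim probe set or those of Ckmt1 and Ckmt2 were above background was not analysed here.

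Other genes of calcium handling gave no call. None of 19 relatives and regulators of the pump and channel passed, with a median difference of 0.07; 7 of them were highest in FF replicate 1, and Ryr1, Atp2a1 and Casq1 are also in the muscle list. Fkbp1b, a protein that binds ryanodine receptors, differed by -0.21 (adjusted p = 0.240) and S100b, a calcium-binding protein also known from Schwann cells, by 0.24 (adjusted p = 0.288). In calcium entry, pumps and kinases none of 14 passed, with a median of -0.02. Stim1, the calcium sensor of the endoplasmic reticulum, differed by 0.19 ± 0.05 SE (adjusted p = 0.112) and Orai3, a plasma membrane calcium channel, by 0.17 (adjusted p = 0.138). Among 7 genes of mitochondrial calcium handling none passed and the median was 0.09. Letm1, an inner membrane protein of ion exchange, differed by 0.32 ± 0.09 SE (adjusted p = 0.109), with 8.72 to 9.22 in FF mice and 8.50 to 8.76 in VV mice, and Mcur1, a regulator of mitochondrial calcium uptake, by 0.18 (adjusted p = 0.225).

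Across these 6 pathway lists, 0 of 67 measured genes passed the threshold in limma; 33 were higher in FF, 15 had an unadjusted p under 0.05 and the lowest adjusted p was 0.0920. The 15 are 22.4% of the 67, beside 16.4% of all genes. With FF replicate 3 left out 2 of the 67 passed: Ank, at 0.48 (adjusted p = 0.0405), and Letm1, at 0.38 (adjusted p = 0.0439). Ank was also past the threshold after median centring of the arrays and with array weights. For the 11 lists of cell types the counts were 5 up and 1 down of 144, where 0.621% of all genes rose and 0.132% fell. The 5 were brown and beige genes (the 4 with the smallest p were Ucp1, Ppargc1a, Cidea and Cox7a1). The 1 that fell was Ptprc, which encodes the leukocyte antigen CD45, at -0.68 (adjusted p = 0.0422). Of the 144, 1 passed when either FF replicate 5 or VV replicate 5 was left out, and it was Ucp1 both times; 2 passed when FF replicate 2 was dropped, 2 when VV replicate 2 was, and 3 when VV replicate 4 was. Ptprc was past the threshold in 3 of its 10 fits with 1 mouse left out, with adjusted p from 0.0369 to 0.104. With the skeletal muscle score as a covariate 2 of the 144 passed, Ppargc1a and Ucp1.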

How the data were processed

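The deposited table holds log2 intensities of 10 one-colour arrays, which the authors normalised and summarised with RMA, per the submitters' processing notes; no version or build is given in the sources used here. Of 35557 probe sets, 25689 had a value on all 10 arrays; 20777 of these named 1 gene, and the probe set with the highest mean stood for each of 19659 genes. Array medians were 7.15 to 7.17 in FF and 7.18 to 7.21 in VV.

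The genotypes were compared by limma 3.58.1 under R 4.3.3, using lmFit and eBayes without covariates, and two-sided p-values were adjusted by Benjamini-Hochberg across the 19659 genes, with 0.05 as the threshold. On simulated data of 19659 genes, 77 of 100 shifts of 0.5 and 95 of 100 shifts of 1 log2 unit were recovered, with 10 false calls. The simulated noise was drawn separately for each gene and mouse. In the real arrays muscle and liver genes varied together, so recovery there may differ. The shifted genes were drawn from all genes, whose median SD within a genotype was 0.11, beside 0.15 for the 10 members. The recovery rates may therefore be too high for the members. The genes chosen for naming were the 10 members with Ckm, Acta1, Alb, Ucp1 and Adipoq. For each member past the threshold the 3 genes most like it were added, with members and predicted genes left out of that choice. From each list came the genes past the threshold (the 4 with the smallest p where more passed, the 2 with the smallest p where none did). Those of the cell type lists without a call are mostly left out of the text, as is Alb. Members, lists, tests and alternatives were chosen with earlier results of these data known, and the short cyclic AMP, CCAAT and GC box motifs were added after the promoters were read. The labels give each mouse its own animal number. Promoters are from RefSeq (GRCm38.p6); figures were drawn with matplotlib 3.10.9. Alternatives left out mice, dim genes or both replicate 1 mice, blocked on replicate number, rescaled the arrays, kept or averaged all probe sets, changed the variance model or weights, or added a muscle or liver score.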

Additional observations from a re-analysis of the deposited data

Results flagged for a closer look

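Within a genotype, 134 groups of 5 mice were screened for a mouse set apart from the other 4, and 14 were marked; chance marks about 1 in 20 groups. Among the 10 members the screen marked Alpl in FF replicate 5, at 8.67 with the next mouse at 8.16. In the related lists it marked Slc25a4 in VV replicate 3 (11.13, next 10.98), Mcur1 in FF replicate 3 (10.37, next 10.54, the low side), the precursor supply score in VV replicate 1 (0.74, next -0.01) and the score of the pump and channel relatives in FF replicate 1 (0.40, next 0.03).

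The remaining marks were in genes and scores of other cell types, save that Ckm is also in the list of creatine kinase partners. Ckm stood apart in FF replicate 1 (9.91) and in VV replicate 1 (8.27), as did the skeletal muscle score (1.64 and 0.13). The liver score stood apart in VV replicate 1 (3.44) and in FF replicate 4 (-0.28). Krt18, an epithelial keratin, was high in VV replicate 1 (8.86), Cldn5, an endothelial junction protein, in VV replicate 4 (11.21), and the leukocyte score in VV replicate 2 (0.44).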

How the results depend on the processing

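The 9 members short of the threshold stayed short of it under all 22 alternatives, save that the filters on dim genes removed up to 3 of them. Phospho1 kept its direction in all 22 and its call in 12. The number of members higher past the threshold, 1, was 0 with the replicate block, without FF replicate 1 and VV replicate 1 together, and with the muscle or the liver score as a covariate; it was 0 to 1 with single mice left out. Directions turned for Ryr2 (-0.03 to 0.01 with single mice left out, 0.03 after quantile normalisation, 0.03 after median centring), for Ckmt1 (-0.09 to 0.01 with single mice left out), for Adipoq (0.00 after median centring), for Ckm (-0.04 with the muscle score) and for Acta1, a muscle actin at 0.10 as reported (-0.26 to 0.32 with single mice left out, -0.23 without both mice, -0.35 with the muscle score). Ckm and Acta1 are themselves part of the muscle score, so that covariate adjusts them partly for their own values. Their turned signs with it cannot be read as a result about these genes.

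Over all genes 148 passed. The count was 5 with the replicate block, 28 without both mice, 601 after median centring, 355 and 230 without genes below the median and the 25th percentile of intensity, 383 with array weights, 9 with the muscle score, 62 with the liver score and 7 to 379 with single mice left out. It was 99 after quantile normalisation. Of the calls, 82.4% were higher in FF, and 92.2% after median centring. The 6 list genes past the threshold became 0 with the replicate block, 11 after median centring, 10 with array weights, 2 with the muscle score and 1 to 11 with single mice left out. The causes were not tested. Under the filters fewer genes were adjusted for, and the variance model was also fitted anew on the genes kept. Replicate numbers share no stated animal, litter or day, and deviations of same-numbered mice correlated at 0.10, 0.01, -0.08, -0.26 and -0.15; with the block the adjusted p of Phospho1 was 0.163 at an unchanged difference of 1.11.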
